A study of Mus musculus with 33 samples.

Results

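This account covers 4 of the 33 libraries of the series, sequenced from resident memory T cells (TRM) of mouse skin 1 day (24 hours) after an allergen retest. It compares cells that had recently signalled through the T cell receptor (TCR) with cells of the same treatment arm that had not. The members were taken by their column headers: GFP-positive TRM A and B against GFP-negative TRM A and B of the arm whose header code is 3. All genes of the count table were examined, and 11588 of 18054 passed the filter on low counts.

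All animals of this experiment were Nur77GFP mice that were allergic to the hapten DNFB (dinitrofluorobenzene), a model of allergic contact dermatitis driven by CD8 T cells. Live CD45+CD8+CD69+CD103+ cells were sorted from skin, and both GFP states passed that same gate. The labels give day 1 an acetone arm and an arm with the topical glucocorticosteroid TA, each with both GFP states. The headers carry a code and not the treatment, so neither code 3 nor the other day 1 arm, code 4, is given a treatment here, and both GFP states of code 3 shared whichever it was. Day 0 acetone TRM, GFP-negative cells taken just before retest (3 libraries), serve as a level before allergen. Whether a library pooled animals, and whether A and B came from separate animals, is unknown from the labels. The p-values therefore cover the spread among these libraries, which may be technical.

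TRM are T cells that stay in a tissue after an infection or an allergen has cleared, and those sorted here were CD8 T cells. In the epidermis the integrin CD103 (Itgae with Itgb7) holds them to E-cadherin on keratinocytes. When their TCR meets its peptide, kinases next to the receptor drive calcium entry, MAP kinases and NF-kB, which act through NFAT, AP-1, EGR and NR4A factors on cytokine, chemokine and granule genes. Nur77, the product of Nr4a1, is such an early target, and GFP placed under its control marks cells that signalled recently.

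The 4 libraries held 5440609 to 8515297 counts and 11774 to 12667 detected genes, and mitochondrial transcripts took 28.6 and 28.4% of the GFP-negative and 22.4 and 25.9% of the GFP-positive counts. Log2 CPM (counts per 1000000 counts, on scaled library sizes) correlated across genes at 0.916 between the GFP-negative libraries, 0.932 between the GFP-positive libraries and 0.873 to 0.889 between the states. Among markers of other cells, Cd4, Foxp3 and Ms4a1 were at 0 in all 4 libraries. The summed level of 9 CD4 and regulatory T cell markers was 481 and 475 CPM in the GFP-negative and 817 and 859 CPM in the GFP-positive libraries, and 2 of the 8 tested were higher (Nrp1 and Cd40lg). That of 9 NK and innate lymphoid cell markers was 138 and 135 against 665 and 652 CPM, with 2 of 7 higher (Areg and Il1rl1). The summed level of 30 keratinocyte markers was 4234 and 3844 CPM in the GFP-negative and 2036 and 2730 CPM in the GFP-positive libraries, and that of 27 mononuclear phagocyte markers was 1313 and 1220 against 1282 and 1162 CPM. Summed neutrophil markers were at 128 and 122 against 102 and 140 CPM, and summed fibroblast markers at 153 and 108 against 51.4 and 73.0 CPM. A single gene, Mmp3, made up most of the fibroblast sum, at 123 and 81.9 against 44.1 and 56.0 CPM. The part of these other cells in the results below was not tested. Transcripts of the labelled identity were present in both states. The summed level of Cd3d, Cd3e, Cd3g, Cd8a and Cd8b1 was 4111 and 3794 CPM in the GFP-negative and 2185 and 2179 CPM in the GFP-positive libraries. Cd3e, Cd3g and Cd8b1 were lower, and Cd3d and Cd8a were not called. Cd8a stood at 779.6 and 704 CPM in the GFP-negative and 643 and 593 CPM in the GFP-positive libraries. Cd3e stood at 771 and 764 CPM in the GFP-negative and 479 and 463 CPM in the GFP-positive libraries.

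Of the 11588 genes tested, 621 (5.36%) differed between the GFP states by edgeR's quasi-likelihood test at an adjusted p of 0.05. In GFP-positive cells 270 (2.33%) were higher and 351 (3.03%) lower, 205 and 286 of them by over 2-fold, and the median log2 fold change over all genes was -0.03. The 2 libraries of one state did not overlap with those of the other at 5729 genes (49.4%), which include all 621. With library totals as the only scaling that median was -0.20, and 192 were called higher and 487 lower, so falls below are read relative to this shift. Each library carried weight: 312 genes were called without GFP-negative A, 412 without GFP-negative B, 322 without GFP-positive A and 341 without GFP-positive B. Counts "with each library left out" follow that order throughout. Levels are given per library, day 0 levels as mean ± SD (n = 3), and log2 fold changes ± SE from the edgeR fit. Genes said to be higher, lower or to have risen passed the adjusted p of 0.05.

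**Figure D1:**
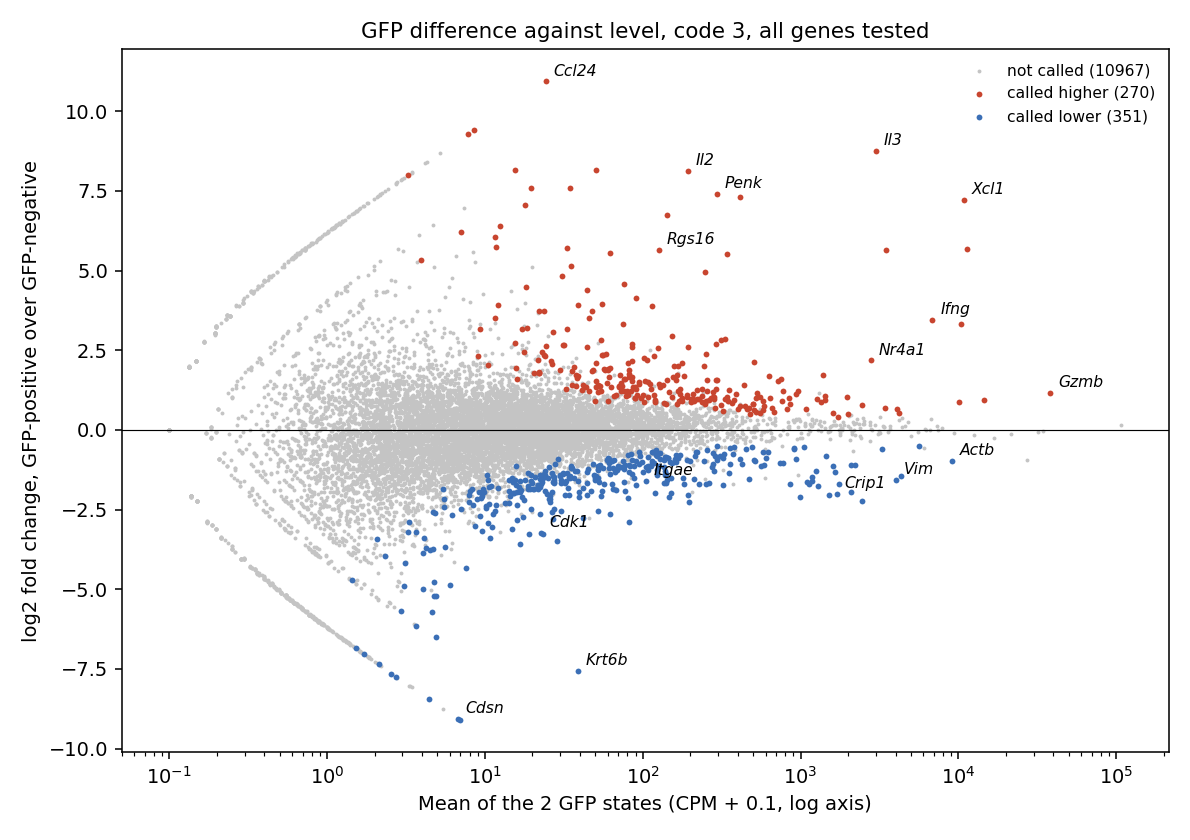
Log2 fold change of GFP-positive over GFP-negative cells (y axis) against the mean level of the 2 states (x axis, CPM + 0.1, log scale) for the 11588 genes tested. Red points are the 270 genes called higher, blue the 351 called lower, and grey those not called. Il3 and Xcl1 lie far above 0 at high levels, and the streaks at the left are genes with no count in one state.

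**Figure D2:**
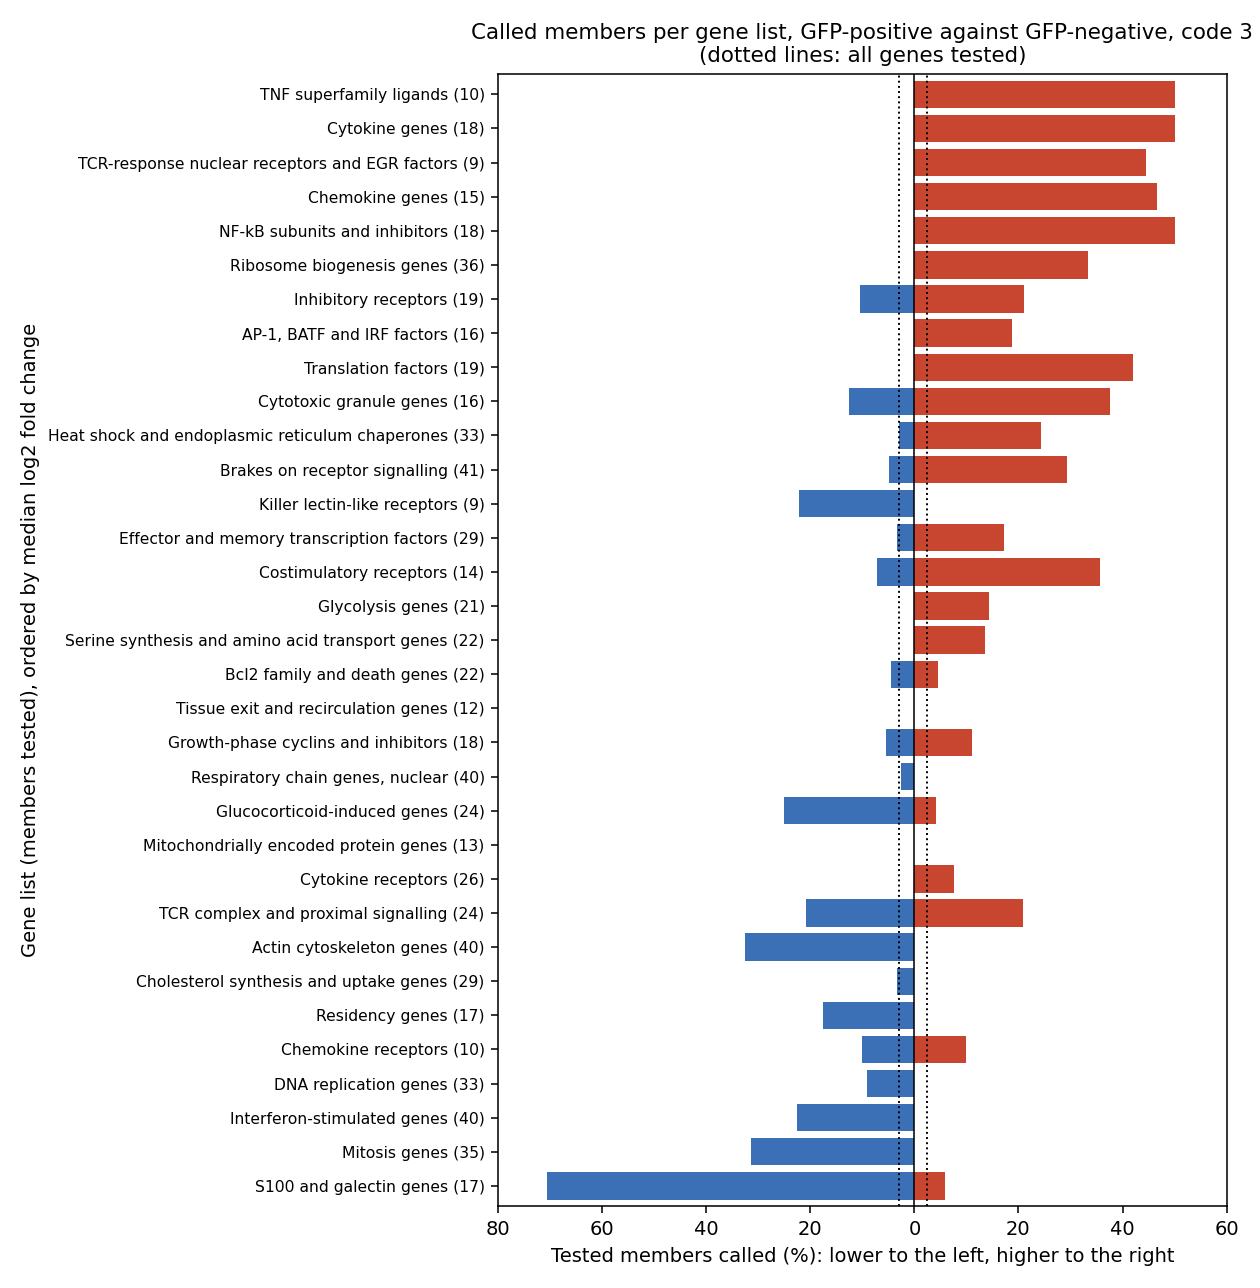
Share of tested members called lower (left, blue) or higher (right, red) in GFP-positive cells for each gene list, with the number tested in brackets and lists ordered by median log2 fold change. Dotted lines mark the shares over all genes tested, 3.03% lower and 2.33% higher. TNF superfamily ligands, cytokine genes and EGR and NR4A factors are at the top, and mitosis, S100 and galectin genes at the bottom.

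The transcripts that follow TCR signalling first describe the sort. Nr4a1 itself stood at 878 and 1150.1 CPM in the GFP-negative and 4988 and 4195 CPM in the GFP-positive libraries (log2 2.18 ± 0.19, adjusted p = 3.88e-07), and at 1769 ± 314 CPM at day 0, above both GFP-negative libraries. Since the GFP gate reports Nur77, these values describe the gate. The eGFP row gave 1.59 and 5.80 CPM in the GFP-negative and 20.1 and 11.7 CPM in the GFP-positive libraries and was not called (log2 2.08 ± 0.99, adjusted p = 0.308). Nr4a2, a second nuclear receptor of this family, stood at 46.6 and 61.6 CPM in the GFP-negative and 298 and 364 CPM in the GFP-positive libraries (log2 2.61 ± 0.25, adjusted p = 8.07e-07). Among 9 tested NR4A, EGR and NAB genes, 4 were higher and none lower (3, 2, 3 and 4 higher with each library left out; median log2 1.55). The zinc finger factor Egr1, also called, was at 95.5 and 69.8 against 246 and 238 CPM (log2 1.55 ± 0.31; not called without GFP-negative B, adjusted p = 0.0753). Egr2, the remaining member called, was at 16.1 and 25.4 against 92.9 and 55.8 CPM (log2 1.84 ± 0.50; not called without GFP-negative A, GFP-negative B or GFP-positive A, adjusted p = 0.323, 0.0845 and 0.315; also lost with library totals as scaling and with the replicate block). Nr4a3 was at 10.7 and 1.49 against 14.0 and 11.7 CPM and was not called.

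NF-kB is held in the cytoplasm by inhibitors until the TCR signal removes them. Of 18 tested NF-kB subunits and inhibitors 9 were higher and none lower (6, 9, 7 and 7 with each library left out), with a median log2 of 1.06. Rel, which encodes the subunit c-Rel, stood at 15.1 and 12.0 CPM in the GFP-negative and 166 and 107 CPM in the GFP-positive libraries (log2 3.33 ± 0.59, adjusted p = 0.00168). Nfkb1, which encodes the p105 precursor of p50, stood at 313 and 283 against 973 and 942 CPM (log2 1.68 ± 0.24), and Nfkb2 at 124 and 134 against 341 and 416 CPM (log2 1.55 ± 0.21). Inhibitor genes also rose: Nfkbid was at 180.1 and 195 against 902 and 753 CPM (log2 2.14 ± 0.20), Nfkbib at 55.5 and 78.8 against 285 and 293 CPM (log2 2.10 ± 0.29) and Nfkbia at 494 and 678 against 1355 and 1211 CPM (log2 1.13 ± 0.17). Tnfaip3, which encodes the deubiquitinase A20, was not called, at 489.9 and 514 against 665 and 467 CPM.

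Of 16 tested AP-1, BATF and IRF genes 3 were higher and none lower (1, 2, 1 and 2 with each library left out; median log2 0.89). Irf4, a factor whose level follows TCR strength, stood at 8.32 and 1.49 CPM in the GFP-negative and 61.2 and 83.7 CPM in the GFP-positive libraries (log2 3.90 ± 0.70, adjusted p = 0.00133; log2 3.10 to 5.59 with 1 library left out). Junb was at 1199 and 1413 against 3028 and 2266 CPM (log2 1.02 ± 0.19; not called without GFP-negative A or GFP-positive A, adjusted p = 0.0776 and 0.0602). Fosl2 was at 309.5 and 304 against 514 and 526 CPM (log2 0.76 ± 0.18; not called with any of the 4 libraries left out, adjusted p = 0.0766 to 0.124; also lost with library totals as scaling). Fos, at 242 and 268 against 365 and 334 CPM, and Jund, at 1532 and 1275 against 1562 and 1333 CPM, were not called. Under DESeq2, an alternative to edgeR, Fos was called higher. Among 29 further effector and memory transcription factors 5 were higher and 1 lower. Nfatc1, the NFAT member that TCR signals induce, was at 37.3 and 39.1 against 181 and 165 CPM (log2 2.18 ± 0.34). Stat5a was at 3.77 and 9.22 against 92.4 and 83.9 CPM (log2 3.74 ± 0.62; log2 3.26 to 4.52 with 1 library left out) and Stat3 at 449.8 and 703 against 1441 and 1258 CPM (log2 1.23 ± 0.19).

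Chemokine transcripts took 0.303 and 0.355% of all counts in the GFP-negative libraries and 6.52 and 5.69% in the GFP-positive libraries, against 0.161 to 0.241% at day 0. Cytokine transcripts took 0.196 and 0.214% against 1.98 and 1.85%. Of 15 tested chemokine genes 7 were higher and none lower (6, 7, 6 and 6 with each library left out; median log2 1.51).

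Xcl1, the ligand of the receptor XCR1 on cross-presenting dendritic cells (ENSMUSG00000026573.7; chromosome 1, 164931644 to 164935527, minus strand, GRCm38), stood at 149 and 139 CPM in the GFP-negative and 21314 and 21485 CPM in the GFP-positive libraries (log2 7.21 ± 0.19, adjusted p = 1.15e-15). At day 0 it was at 203 ± 35.2 CPM, so the GFP-negative libraries were not above the level before retest. Ccl3, Ccl4, Ccl1 and Ccl9 lie on chromosome 11. Ccl3, a ligand of CCR1 (83647844 to 83649355, minus strand), stood at 389 and 482 CPM in the GFP-negative and 21434 and 22719.9 CPM in the GFP-positive libraries (log2 5.66 ± 0.18, adjusted p = 2.16e-14). Ccl4, its neighbour (83662584 to 83664683, plus strand), stood at 1729 and 2034 CPM in the GFP-negative and 22950.0 and 14613 CPM in the GFP-positive libraries (log2 3.32 ± 0.22, adjusted p = 2.93e-08). Ccl1, the ligand of CCR8, stood at 136 and 136 CPM in the GFP-negative and 5948 and 7718 CPM in the GFP-positive libraries (log2 5.65 ± 0.18, adjusted p = 1.64e-14). Ccl9, a ligand of CCR1 (83572919 to 83578636, minus strand), stood at 7.93 and 2.68 CPM in the GFP-negative and 772 and 874 CPM in the GFP-positive libraries (log2 7.31 ± 0.52, adjusted p = 5.04e-08; log2 6.68 to 8.25 with 1 library left out). In all 5 genes the libraries of one state were far from those of the other, and the widest gaps between A and B were those of Ccl4 in GFP-positive and Ccl9 in GFP-negative cells. Ccl5, on the same chromosome (83525778 to 83530518, minus strand), was at 98.1 and 84.8 against 105 and 94.5 CPM and was not called. Cxcl9 and Cxcl10, the interferon gamma-induced ligands of CXCR3, were not called at 247 and 245 against 347 and 377 CPM and 445 and 343 against 264 and 274 CPM, and stood at 1.71 ± 0.602 CPM and 14.7 ± 4.02 CPM at day 0.

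**Figure D3:**
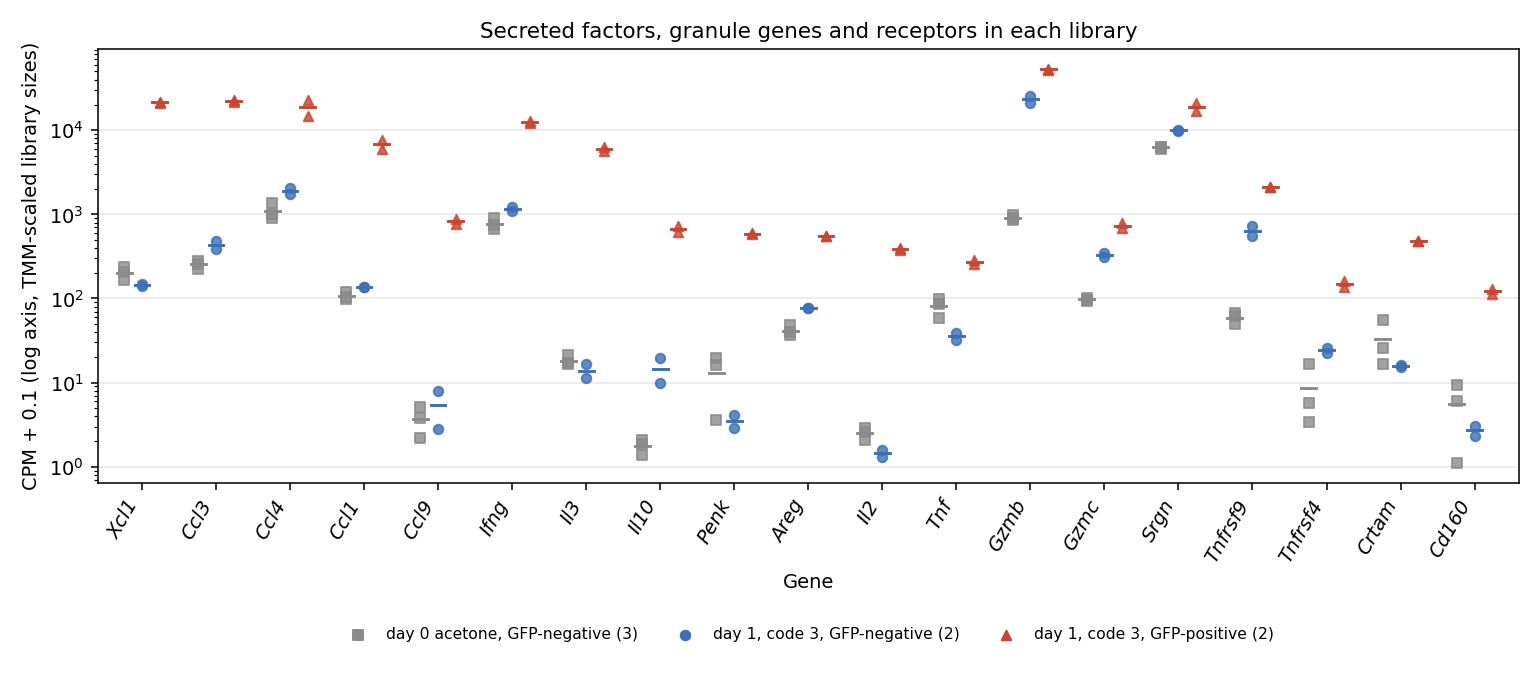
Level of 19 secreted factor, granule and receptor genes in each library (y axis, CPM + 0.1, log scale), with short bars for group means. Grey squares are the 3 day 0 acetone libraries, blue circles the 2 GFP-negative and red triangles the 2 GFP-positive libraries of code 3. Every red point lies above both blue points, and for Gzmb and Tnfrsf9 the blue points already lie well above the grey.

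Of 18 tested cytokine genes 9 were higher and none lower (10, 9, 9 and 9 with each library left out; median log2 1.55). Il3, a growth factor for mast cells and basophils (ENSMUSG00000018914.5; chromosome 11, 54265303 to 54267277, minus strand), stood at 11.1 and 16.5 CPM in the GFP-negative and 5635 and 6339 CPM in the GFP-positive libraries (log2 8.75 ± 0.28, adjusted p = 2.58e-14). Csf2 (GM-CSF) and Il13, which lie in the same cytokine cluster and were named after their values were seen, stood at 0.594 and 3.42 against 68.6 and 50.3 CPM (log2 4.83 ± 0.88; log2 4.12 to 6.57 with 1 library left out) and at 27.1 and 44.5 against 195 and 234 CPM (log2 2.58 ± 0.39). Ifng, the type 1 effector cytokine, stood at 1082 and 1226 CPM in the GFP-negative and 12909.5 and 12178 CPM in the GFP-positive libraries (log2 3.44 ± 0.17, adjusted p = 3.66e-11), with 773 ± 121 CPM at day 0. Il2, the T cell growth factor, was close to absent in GFP-negative cells: it stood at 1.19 and 1.49 CPM in the GFP-negative and 398 and 376 CPM in the GFP-positive libraries (log2 8.13 ± 0.51, adjusted p = 2.00e-09). Tnf stood at 32.3 and 38.8 CPM in the GFP-negative and 259 and 285 CPM in the GFP-positive libraries (log2 2.93 ± 0.31, adjusted p = 2.89e-06), and the GFP-negative libraries were below the day 0 level of 80.5 ± 19.9 CPM.

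Genes with regulatory or repair roles were also called higher. Il10, which encodes the anti-inflammatory cytokine IL-10, stood at 9.71 and 19.5 CPM in the GFP-negative and 726 and 615 CPM in the GFP-positive libraries (log2 5.51 ± 0.49, adjusted p = 6.69e-07). Areg, which encodes the epithelial growth factor amphiregulin, stood at 77.5 and 77.3 CPM in the GFP-negative and 551 and 552 CPM in the GFP-positive libraries (log2 2.83 ± 0.23, adjusted p = 8.39e-08). Penk, which encodes the opioid peptide precursor proenkephalin, stood at 2.77 and 4.02 CPM in the GFP-negative and 585 and 593 CPM in the GFP-positive libraries (log2 7.41 ± 0.71, adjusted p = 7.95e-06), and at 13.1 ± 8.42 CPM at day 0. Csf1, at 224 and 232 against 202 and 207 CPM, Lta, at 71.7 and 93.4 against 104 and 84.1 CPM, and Mif, at 529 and 330.0 against 589.7 and 645 CPM, were not called.

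Among TNF superfamily ligands, surface signals to other immune cells, 5 of 10 tested were higher and none lower (median log2 2.71). This count rests on 2 libraries per state, since with any of the 4 left out only Tnfsf11 remained called (1, 1, 1 and 1). Tnfsf11, which encodes RANKL, stood at 20.4 and 16.7 CPM in the GFP-negative and 97.9 and 89.9 CPM in the GFP-positive libraries (log2 2.34 ± 0.35, adjusted p = 2.37e-04). The other 4 were Cd40lg, at 7.73 and 11.5 against 39.6 and 45.9 CPM, Cd70, at 0 and 0 against 15.2 and 18.4 CPM, Tnfsf8, at 7.13 and 4.31 against 43.7 and 52.6 CPM, and Tnfsf14, at 2.18 and 1.49 against 21.9 and 20.1 CPM. Fasl, the death ligand, was not called, at 41.8 and 37.3 against 38.7 and 35.8 CPM.

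To show what stands upstream of these genes, the 250 bases before the start of 4 of them are printed from RefSeq (GRCm38.p6). They were chosen as a chemokine and a cytokine gene with large changes (Xcl1, Il3), and as the cytokine or chemokine promoters that held an AP-1 or a cyclic AMP response element (Ccl9, Areg). Capitals mark matches, on either strand, to the NFAT core GGAAA, the AP-1 site TGANTCA or the cyclic AMP response element TGACGTCA.
Xcl1, chr1:164935523-164935772, minus strand: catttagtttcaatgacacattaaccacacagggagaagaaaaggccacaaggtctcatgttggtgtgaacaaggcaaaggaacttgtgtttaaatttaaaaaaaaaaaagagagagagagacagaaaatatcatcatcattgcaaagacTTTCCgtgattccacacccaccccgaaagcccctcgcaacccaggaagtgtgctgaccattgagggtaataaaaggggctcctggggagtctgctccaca
Il3, chr11:54267280-54267529, minus strand: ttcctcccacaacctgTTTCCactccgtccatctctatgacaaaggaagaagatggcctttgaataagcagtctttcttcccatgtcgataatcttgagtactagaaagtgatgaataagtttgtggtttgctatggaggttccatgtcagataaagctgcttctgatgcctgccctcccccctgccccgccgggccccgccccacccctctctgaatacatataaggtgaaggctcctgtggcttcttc
Ccl9, chr11:83578637-83578886, minus strand: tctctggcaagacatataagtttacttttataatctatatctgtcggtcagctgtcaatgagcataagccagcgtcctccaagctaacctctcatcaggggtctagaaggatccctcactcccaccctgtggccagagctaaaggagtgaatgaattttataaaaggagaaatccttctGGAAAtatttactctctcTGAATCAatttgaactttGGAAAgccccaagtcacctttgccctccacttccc
Areg, chr5:91139349-91139598, plus strand: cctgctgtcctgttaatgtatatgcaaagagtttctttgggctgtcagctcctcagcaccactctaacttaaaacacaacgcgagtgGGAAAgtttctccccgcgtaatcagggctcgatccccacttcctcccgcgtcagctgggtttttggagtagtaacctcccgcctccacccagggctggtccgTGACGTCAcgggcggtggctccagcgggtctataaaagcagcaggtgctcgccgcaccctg
Of the 21 cytokine, chemokine and TNF ligand genes called higher, 15 had a promoter in the table (250 bases before to 50 after the start, 300 in all). GGAAA occurred in 15 of the 15, against 61.3% of all 32851 promoters. TGANTCA occurred in 2 (Ccl9 and Tnfsf14; 7.81% of all promoters) and TGACGTCA in 1 (Areg; 1.79%). The NR4A element AAAGGTCA and the EGR element GCGGGGGCG, searched on both strands, occurred in none, against 1.51% and 2.91% of all promoters. A match is a string of letters, not evidence of binding.

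Granule genes differed in how they stood to day 0, which was not tested. Gzmb and Gzmc were above it in both states, and Ctsd (284 ± 8.64 CPM) and Ctsw (661 ± 48.6 CPM) below it. Gzmb, which encodes granzyme B (ENSMUSG00000015437.5; chromosome 14, 56258838 to 56262260, minus strand), stood at 25844 and 21169 CPM in the GFP-negative and 52437 and 53192 CPM in the GFP-positive libraries (log2 1.17 ± 0.13, adjusted p = 9.66e-06) and at 909 ± 63.6 CPM at day 0. Gzmc, a neighbouring granzyme gene, stood at 346 and 311 against 683 and 779 CPM (log2 1.15 ± 0.28) and at 98.0 ± 4.17 CPM at day 0, and was not called with any of the 4 libraries left out, adjusted p = 0.0736 to 0.188. Granzyme genes share sequence, so the split of reads between them is uncertain. Srgn, the proteoglycan that packs granules, stood at 10193 and 9703 CPM in the GFP-negative and 20955 and 17109.7 CPM in the GFP-positive libraries (log2 0.94 ± 0.10, adjusted p = 3.05e-06), and Serpinb6b, a protease inhibitor, at 71.1 and 85.1 CPM in the GFP-negative and 566 and 449.7 CPM in the GFP-positive libraries (log2 2.70 ± 0.29, adjusted p = 4.80e-06). In all 6 of 16 tested granule genes were higher (3, 3, 3 and 3 with each library left out) and 2 lower (median log2 0.63). The cathepsin genes Ctsd and Ctsw were lower, at 206 and 184 against 75.8 and 84.3 CPM (log2 -1.28 ± 0.17) and 374 and 354 against 211 and 201 CPM (log2 -0.82 ± 0.13). Gzma, at 161 and 192 against 205 and 232 CPM, and Nkg7, at 1358 and 1093 against 1283 and 1477 CPM, were not called.

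Of 14 tested costimulatory receptor genes 5 were higher (3, 4, 5 and 3 with each library left out) and 1 lower. Tnfrsf9 (4-1BB), a survival receptor induced by the TCR, stood at 722 and 560.0 CPM in the GFP-negative and 2114 and 2130.0 CPM in the GFP-positive libraries (log2 1.73 ± 0.20, adjusted p = 1.16e-05), and at 59.0 ± 8.64 CPM at day 0. Tnfrsf4 (OX40) was at 22.2 and 25.9 against 136 and 159 CPM (log2 2.62 ± 0.49). Crtam, an adhesion receptor of cytotoxic cells, stood at 15.3 and 15.9 CPM in the GFP-negative and 488 and 477 CPM in the GFP-positive libraries (log2 4.95 ± 0.47, adjusted p = 1.87e-06). Klrk1, which encodes the stress ligand receptor NKG2D, was lower, at 344 and 410.5 CPM in the GFP-negative and 196 and 162 CPM in the GFP-positive libraries (log2 -1.07 ± 0.19, adjusted p = 9.54e-04). Cd28, at 256 and 232 against 236 and 281 CPM, and Icos, at 1136 and 1179 against 1148 and 1124 CPM, were not called.

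Among 19 tested inhibitory receptors and ligands 4 were higher and 2 lower. Cd160 stood at 2.97 and 2.23 CPM in the GFP-negative and 114 and 129 CPM in the GFP-positive libraries (log2 5.55 ± 0.77, adjusted p = 1.70e-04). Havcr2 (TIM-3) was at 277 and 247 against 522 and 413 CPM (log2 0.84 ± 0.24; not called without GFP-negative A, GFP-negative B or GFP-positive A, adjusted p = 0.131, 0.255 and 0.32; also lost with library totals as scaling). Nt5e (CD73), an ectoenzyme that makes adenosine, was lower, at 39.4 and 54.9 CPM in the GFP-negative and 6.34 and 7.27 CPM in the GFP-positive libraries (log2 -2.79 ± 0.44, adjusted p = 3.93e-04). Pdcd1 (PD-1) was at 37.7 and 92.1 against 107 and 111 CPM, with GFP-negative A apart from B. It was not called in the full fit (adjusted p = 0.165) and was called without GFP-negative B, at log2 1.52.

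Genes that restrain receptor signalling were examined next. Of 41 tested 12 were higher (6, 8, 8 and 10 with each library left out) and 2 lower, with a median log2 of 0.52. Dusp2, a nuclear MAP kinase phosphatase, stood at 66.8 and 94.4 CPM in the GFP-negative and 596 and 579.5 CPM in the GFP-positive libraries (log2 2.86 ± 0.24, adjusted p = 1.10e-07). Rgs16, which shortens chemokine receptor signals, stood at 5.55 and 4.31 CPM in the GFP-negative and 267 and 227 CPM in the GFP-positive libraries (log2 5.65 ± 0.56, adjusted p = 1.99e-06). Sla, an adaptor that lowers TCR levels, was at 5.55 and 13.5 against 168 and 173 CPM (log2 4.14 ± 0.46; log2 3.66 to 4.92 with 1 library left out), and Sh2d2a at 139 and 156 against 499.8 and 369 CPM (log2 1.56 ± 0.18). The 2 mRNA-decay genes Zfp36l1 and Zfp36l2 went opposite ways: Zfp36l1 stood at 205 and 290.0 against 545 and 528 CPM (log2 1.12 ± 0.17) and Zfp36l2 at 569 and 589 against 275 and 276 CPM (log2 -1.07 ± 0.17). Rgs1, at 665 and 747 against 602 and 509 CPM, was not called.

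The TCR complex itself split. Of 24 tested genes of the receptor and its first kinases and adaptors 5 were higher (2, 4, 3 and 4 with each library left out) and 5 lower (1, 4, 1 and 1), with a median log2 of -0.29. Cd3g, a CD3 chain, stood at 1741 and 1568 CPM in the GFP-negative and 519 and 539.8 CPM in the GFP-positive libraries (log2 -1.64 ± 0.15, adjusted p = 2.56e-07). Cd3e was lower by less (log2 -0.70 ± 0.16, adjusted p = 0.00808; not called without GFP-negative A, GFP-positive A or GFP-positive B, adjusted p = 0.0523, 0.0585 and 0.0961), and Cd8a did not pass the test (log2 -0.26 ± 0.13, adjusted p = 0.342). The adaptor Lcp2 (SLP-76) was higher, at 130.0 and 169.7 CPM in the GFP-negative and 449.6 and 432 CPM in the GFP-positive libraries (log2 1.56 ± 0.22, adjusted p = 1.17e-04), as was the receptor Cd6, at 116 and 146 against 309 and 316 CPM (log2 1.26 ± 0.18). The kinase genes Fyn, at 86.2 and 114 against 219 and 249 CPM (log2 1.22 ± 0.24; not called without GFP-negative A, adjusted p = 0.0755), and Zap70, at 56.1 and 60.7 against 127 and 124 CPM (log2 1.10 ± 0.24; not called without GFP-negative A or GFP-positive A, adjusted p = 0.0904 and 0.0558), were also higher. Lck, at 564 and 631 against 546 and 512 CPM, was not called.

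Residency and positioning genes were lower where they changed. Both states were sorted as CD103-positive, yet Itgae, which encodes CD103, stood at 161 and 152 CPM in the GFP-negative and 46.0 and 57.9 CPM in the GFP-positive libraries (log2 -1.59 ± 0.26, adjusted p = 5.87e-04). Its partner Itgb7 stood at 71.7 and 63.5 CPM in the GFP-negative and 20.7 and 22.0 CPM in the GFP-positive libraries (log2 -1.66 ± 0.33, adjusted p = 0.0042). Cdh1, which encodes E-cadherin, stood at 277 and 198 CPM in the GFP-negative and 48.5 and 60.8 CPM in the GFP-positive libraries (log2 -2.12 ± 0.21, adjusted p = 1.07e-06), and is also a keratinocyte transcript. These were the 3 lower of 17 tested residency genes, none was higher, and Itgae, Itgb7 and Cdh1 kept their calls with each library left out. Day 0 levels were 177 ± 40.7 CPM for Itgae, 265 ± 13.5 CPM for Cdh1 and 153 ± 36.1 CPM for Itgb7, whose GFP-negative libraries were below all 3 day 0 libraries. Cd69, the other gate marker, was at 319 and 283 against 212 and 204 CPM and was not called in the full fit (adjusted p = 0.118). It was called lower with library totals as scaling and by DESeq2. Transcript and surface protein are different measures, and the sort fixed only the latter. None of 12 tested tissue exit genes was called by edgeR (4 at an unadjusted p under 0.05, 1 by DESeq2).

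Of 10 chemokine receptor and related genes 1 was higher, the proton-sensing receptor gene Gpr65, at 99.1 and 95.8 CPM in the GFP-negative and 394 and 394 CPM in the GFP-positive libraries (log2 2.02 ± 0.28, adjusted p = 1.06e-04). Cxcr4 was lower, at 69.4 and 73.0 CPM in the GFP-negative and 27.6 and 25.8 CPM in the GFP-positive libraries (log2 -1.41 ± 0.24, adjusted p = 7.33e-04). Among 26 cytokine receptor genes 2 were higher and none lower (0, 2, 0 and 1 higher with each library left out). They were Il2rb, at 151 and 212 against 391 and 357 CPM (log2 1.04 ± 0.23; not called without GFP-negative A or GFP-positive A, adjusted p = 0.143 and 0.0602; also lost with library totals as scaling), and Il1rl1, the IL-33 receptor gene, at 0 and 0.297 against 8.85 and 18.5 CPM (not called with any of the 4 libraries left out, adjusted p = 0.0705 to 0.269). The 2 called cytokine receptor genes were 7.69% of the 26, near the 5.36% of all genes. Il2ra (CD25), at 154 and 145 against 332 and 331 CPM, was not called in the full fit (adjusted p = 0.149). It was called higher with no low-count filter and in the fits of the 8 day 1 libraries and of the 4 libraries alone.

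Of 36 tested ribosome biogenesis genes 12 were higher and none lower (6, 5, 6 and 7 with each library left out), 35 had a positive log2 fold change, and the median was 1.01. Npm1 and Ncl, which encode the nucleolar proteins nucleophosmin and nucleolin, stood at 914 and 911 CPM in the GFP-negative and 1862 and 1988 CPM in the GFP-positive libraries (log2 1.08 ± 0.13, adjusted p = 2.08e-05) and at 404 and 394 against 676 and 835 CPM (log2 0.92 ± 0.17). Nop56 was at 155 and 152 against 375 and 346 CPM (log2 1.23 ± 0.19) and Gnl3 at 67.0 and 53.2 against 157 and 168 CPM (log2 1.44 ± 0.26). Of 19 translation factors 8 were higher and none lower (5, 4, 3 and 5 with each library left out). Among them Eif5a stood at 3385 and 2975 CPM in the GFP-negative and 5042 and 4894 CPM in the GFP-positive libraries (log2 0.64 ± 0.12, adjusted p = 0.00163). The poly(A)-binding protein gene Pabpc1 was at 947 and 954 against 1736 and 1740.4 CPM (log2 0.87 ± 0.14). In Npm1, Eif5a and Ncl the GFP-negative libraries were themselves above day 0, at 596 ± 75.5 CPM, 1331 ± 183 CPM and 156 ± 25.7 CPM.

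Of 33 chaperone genes 8 were higher (5, 3, 3 and 5 with each library left out) and 1 lower, and 31 had a positive log2 fold change. Hspa5 (BiP), the main chaperone of the endoplasmic reticulum, stood at 359 and 382 CPM in the GFP-negative and 1022 and 1104 CPM in the GFP-positive libraries (log2 1.52 ± 0.18, adjusted p = 1.71e-05). Hsp90ab1 was at 1833 and 1758 against 3171 and 3055 CPM (log2 0.79 ± 0.12). Hspa8, at 1344 and 1237 against 1446 and 1608 CPM, was not called. Among 22 serine and amino acid transport genes 3 were higher. The glutamine transporter gene Slc38a1 was at 83.8 and 49.2 against 273 and 260.2 CPM (log2 2.00 ± 0.28). Slc3a2 was at 1042 and 920.2 against 1924 and 1861 CPM (log2 0.95 ± 0.17), and Slc1a5 at 149 and 199.9 against 362 and 291 CPM (log2 0.90 ± 0.22; not called without GFP-negative A or GFP-positive A, adjusted p = 0.24 and 0.186; also lost with library totals as scaling). Glycolysis genes gave 3 higher of 21 (1, 0, 1 and 1 with each library left out), and Ldha, at 1214 and 1026 against 1255 and 1512 CPM, was not called. Shares near or below the 5.36% of all genes were found for nuclear respiratory chain genes (1 of 40) and cholesterol genes (1 of 29). The same held for mitochondrially encoded protein genes (0 of 13 by edgeR, 0 at an unadjusted p under 0.05 and 0 by DESeq2). Cytokine receptor genes (2 of 26) and tissue exit genes (0 of 12), given above, were also near or below that share.

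Of 35 tested mitosis genes 11 were lower and none higher (8, 7, 7 and 7 with each library left out), with a median log2 of -1.18. Cdk1, the kinase that starts mitosis, stood at 45.2 and 36.7 CPM in the GFP-negative and 4.89 and 3.63 CPM in the GFP-positive libraries (log2 -3.24 ± 0.52, adjusted p = 5.28e-04). Stmn1, a microtubule regulator, stood at 145 and 101 CPM in the GFP-negative and 34.0 and 30.2 CPM in the GFP-positive libraries (log2 -1.93 ± 0.20, adjusted p = 2.79e-06), and the tubulin gene Tubb5 at 883 and 718 against 392 and 355 CPM (log2 -1.10 ± 0.17). At day 0 Cdk1, Stmn1 and Tubb5 were at 61.7 ± 10.1 CPM, 245 ± 25.5 CPM and 1564 ± 109 CPM, above both states. DNA replication genes gave 3 lower of 33 (2, 1, 2 and 0 with each library left out) and a median of -0.94, while Pcna was at 212 and 201 against 289 and 283 CPM and was not called. Pcna was called higher by DESeq2 and with keratinocyte, phagocyte and neutrophil markers left out. The DNA replication genes called were 9.09% of those tested, against 5.36% of all genes. Among growth-phase genes Ccnd2, which encodes cyclin D2, was higher, at 457 and 472 CPM in the GFP-negative and 1066 and 1079.5 CPM in the GFP-positive libraries (log2 1.21 ± 0.16, adjusted p = 7.89e-05). The stress gene Gadd45b was also higher, at 67.8 and 92.8 CPM in the GFP-negative and 457 and 381 CPM in the GFP-positive libraries (log2 2.38 ± 0.20, adjusted p = 1.57e-07). Ccnd3, which encodes cyclin D3, was lower, at 35.7 and 44.0 CPM in the GFP-negative and 11.5 and 8.03 CPM in the GFP-positive libraries (log2 -2.02 ± 0.39; not called without GFP-positive B, adjusted p = 0.072).

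Among 40 tested interferon-stimulated genes 9 were lower and none higher (6, 8, 9 and 5 lower with each library left out), 2 had a positive log2 fold change, and the median was -1.12. Ly6e and Ly6a, which encode membrane-anchored proteins of the Ly6 family, stood at 1802 and 1726 CPM in the GFP-negative and 701 and 749.5 CPM in the GFP-positive libraries (log2 -1.28 ± 0.12, adjusted p = 4.94e-07) and at 3106 and 2566 against 1121 and 1547 CPM (log2 -1.09 ± 0.16). Zbp1, a nucleic acid sensor, stood at 127 and 134 CPM in the GFP-negative and 23.1 and 37.1 CPM in the GFP-positive libraries (log2 -2.12 ± 0.35, adjusted p = 6.19e-04), and Isg20 at 134 and 96.4 against 29.5 and 45.1 CPM (log2 -1.63 ± 0.27). The antiviral membrane genes Ifitm1 and Ifitm2 stood at 2600.3 and 2250.2 against 589 and 590.1 CPM (log2 -2.04 ± 0.14) and 1398 and 1226 against 359 and 452 CPM (log2 -1.69 ± 0.14). In Ly6a, Zbp1 and Ifitm1 the GFP-negative libraries were above day 0, at 643 ± 29.7 CPM, 47.2 ± 16.3 CPM and 809.8 ± 77.6 CPM. Those of Ly6e were not above its day 0 mean of 1907 CPM. The GFP-positive libraries of Ifitm1 lay below all 3 day 0 libraries. Ifitm1 and Ifitm2 are not members of the list of 40. Gbp2, at 564 and 473 against 376 and 616 CPM and 45.0 ± 13.9 CPM at day 0, was not called. In bulk libraries fewer cells with a transcript and less of it per cell cannot be told apart.

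Of 17 S100, galectin and related genes 12 were lower (12, 11, 10 and 12 with each library left out) and 1, Lgals3, was higher (log2 0.52 ± 0.12; not called without GFP-negative B or GFP-positive B, adjusted p = 0.0982 and 0.0714; also lost with library totals as scaling and in the fit of the 4 libraries alone), with a median log2 of -1.26. S100a4 stood at 2005 and 1973 CPM in the GFP-negative and 559 and 606 CPM in the GFP-positive libraries (log2 -1.77 ± 0.11, adjusted p = 1.33e-09). S100a6 was at 3223 and 3419 against 909.7 and 795 CPM (log2 -1.96 ± 0.13) and Crip1, a small LIM protein gene, at 2979 and 2452 against 650.4 and 700.4 CPM (log2 -2.01 ± 0.13). Lgals1, which encodes galectin 1, stood at 2368 and 2354 CPM in the GFP-negative and 924 and 964 CPM in the GFP-positive libraries (log2 -1.32 ± 0.11, adjusted p = 1.10e-07). Of 40 actin cytoskeleton genes 13 were lower and none higher (10, 12, 11 and 8 with each library left out; median -0.39). Vim, which encodes vimentin, stood at 6371 and 5739 CPM in the GFP-negative and 2084 and 1981 CPM in the GFP-positive libraries (log2 -1.57 ± 0.11, adjusted p = 5.35e-09). Tmsb4x, which encodes the actin-binding peptide thymosin beta 4, stood at 7078 and 5689.8 CPM in the GFP-negative and 2209 and 2451 CPM in the GFP-positive libraries (log2 -1.45 ± 0.11, adjusted p = 1.92e-08). Coro1a was at 309 and 245 against 92.0 and 79.2 CPM (log2 -1.69 ± 0.16) and Rac2, a small GTPase gene of blood cells, at 537 and 460.3 against 133 and 165 CPM (log2 -1.74 ± 0.15). The 2 cytoplasmic actin genes parted: Actb stood at 13547 and 10708 CPM in the GFP-negative and 5765 and 6631 CPM in the GFP-positive libraries (log2 -0.97 ± 0.11, adjusted p = 1.49e-05). Actg1, at 7063 and 7883 against 7129.7 and 7635 CPM, was not called (log2 -0.02 ± 0.10, adjusted p = 0.972). Vimentin, S100 and galectin transcripts are also made by keratinocytes, fibroblasts and phagocytes, whose summed markers are given above. Vim, Tmsb4x, S100a4, S100a6, Crip1 and Lgals1 kept their calls with keratinocyte, phagocyte and neutrophil markers left out before scaling, where 308 genes were higher and 334 lower in all. Only the marker rows were removed in that refit, and fibroblast markers were kept. Any reads of these genes from other cells stayed in the counts, so the refit cannot tell which cells they came from.

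**Figure D4:**
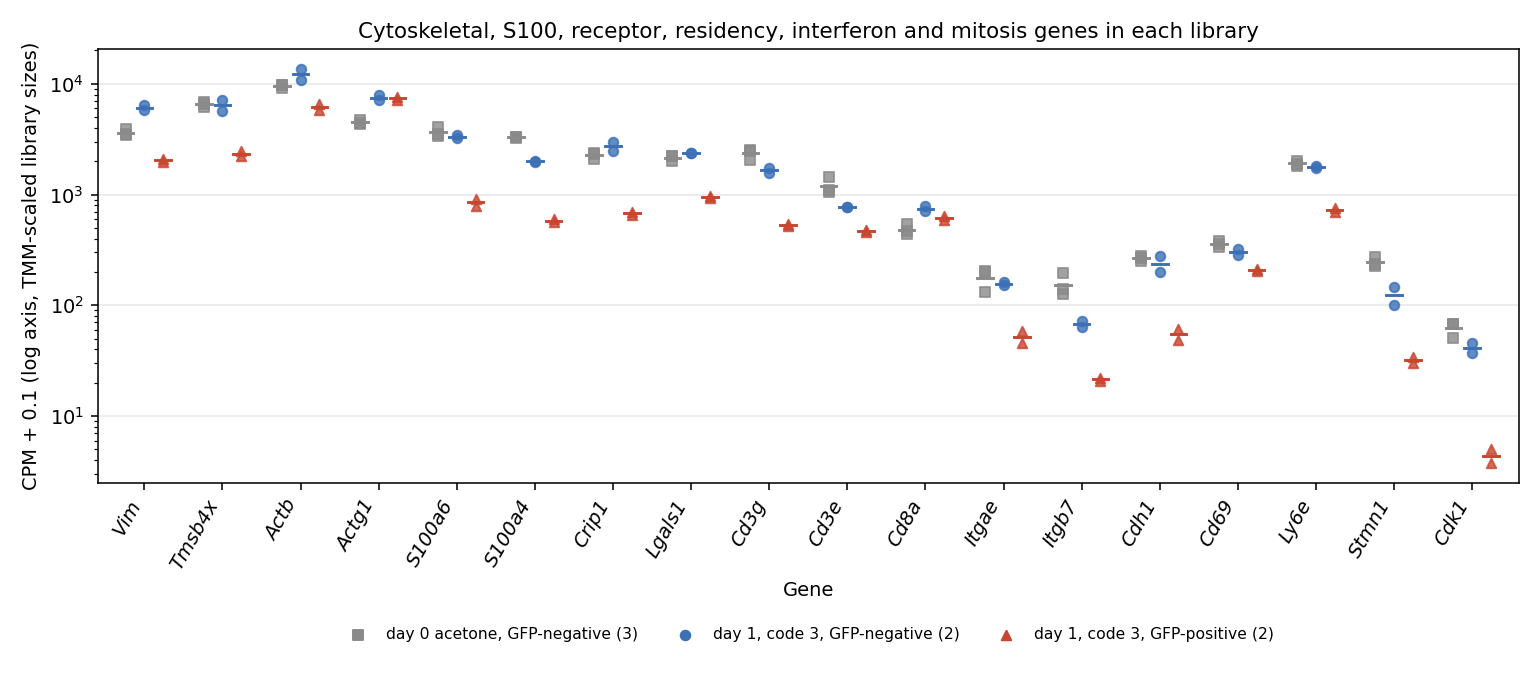
Level of 18 cytoskeletal, S100, receptor, residency, interferon and mitosis genes in each library (y axis, CPM + 0.1, log scale), with short bars for group means; symbols are as in the plot of secreted factors. The red GFP-positive points lie below both blue GFP-negative points except for Actg1, where they overlap. For Cd8a and Cd69 the gap did not pass the test in the full fit.

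Genes that glucocorticoids induce were examined since TA is one, although both GFP states had the same treatment. Of 24 tested 1 was higher, Nfkbia, and 6 were lower (4, 5, 4 and 5 with each library left out), with a median log2 of -0.06. Tsc22d3, which encodes GILZ, stood at 94.1 and 116 CPM in the GFP-negative and 52.1 and 45.7 CPM in the GFP-positive libraries (log2 -1.10 ± 0.23, adjusted p = 0.00575; not called without GFP-negative B or GFP-positive B, adjusted p = 0.0614 and 0.0895). Txnip, which restrains glucose uptake, stood at 189 and 226 CPM in the GFP-negative and 68.2 and 63.5 CPM in the GFP-positive libraries (log2 -1.66 ± 0.26, adjusted p = 5.01e-04), and Anxa1 at 190.2 and 156 against 68.8 and 75.1 CPM (log2 -1.26 ± 0.20). The metallothionein gene Mt1 stood at 1315 and 1150.4 against 586 and 715 CPM (log2 -0.92 ± 0.19; not called without GFP-negative A or GFP-positive A, adjusted p = 0.0506 and 0.0838). Mt2 stood at 2049.6 and 1653 against 866 and 1229.7 CPM (log2 -0.82 ± 0.18; not called without GFP-negative A or GFP-positive A, adjusted p = 0.107 and 0.163). Of both genes, both states were above day 0, at 279 ± 48.3 CPM and 337 ± 37.2 CPM. Of 22 Bcl2 family and death genes 1 was higher and 1 lower (9.09% called, against 5.36% of all genes). The survival gene Mcl1 was at 170.4 and 205 against 445 and 317 CPM (log2 1.02 ± 0.22; not called without GFP-negative A or GFP-positive A, adjusted p = 0.1 and 0.134). Bbc3, the death gene that encodes PUMA, was at 3.96 and 7.58 against 0.528 and 0 CPM (log2 -4.16 ± 0.79; log2 -7.83 to -3.38 with 1 library left out; not called in the fit of the 4 libraries alone, adjusted p = 0.0788).

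Other genes with large rises were named by size of change. Crabp2, a retinoic acid carrier, stood at 3.17 and 2.08 CPM in the GFP-negative and 291 and 274 CPM in the GFP-positive libraries (log2 6.76 ± 0.76, adjusted p = 1.71e-05). Pou2f2, which encodes the transcription factor OCT2, stood at 0.198 and 0.446 CPM in the GFP-negative and 69.9 and 67.7 CPM in the GFP-positive libraries (log2 7.58 ± 1.08, adjusted p = 2.00e-04; log2 7.20 to 8.25 with 1 library left out). Nrp1, a semaphorin and VEGF receptor gene that is also in the marker list of CD4 and regulatory T cells, stood at 3.77 and 8.33 CPM in the GFP-negative and 138 and 154 CPM in the GFP-positive libraries (log2 4.58 ± 0.63, adjusted p = 9.32e-05; log2 4.14 to 5.26 with 1 library left out). Wdr92, at 7029.5 and 7318 CPM in the GFP-negative and 14135 and 11967 CPM in the GFP-positive libraries (log2 0.86 ± 0.15, adjusted p = 8.53e-04) and 1777 ± 262 CPM at day 0, was among the called genes with the most counts. Susd2, a membrane protein gene, was lower, at 41.2 and 28.0 CPM in the GFP-negative and 4.10 and 2.87 CPM in the GFP-positive libraries (log2 -3.28 ± 0.33, adjusted p = 1.87e-06) and 158 ± 30.2 CPM at day 0, and Ly6g5b was at 48.7 and 55.3 against 3.57 and 5.74 CPM (log2 -3.50 ± 0.55).

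Genes known from tissue macrophages were among those with large changes, and 4 are given here by size of change, not as a list. Pf4 stood at 0 and 0.595 CPM in the GFP-negative and 97.9 and 103 CPM in the GFP-positive libraries (log2 8.16 ± 1.06, adjusted p = 4.52e-05; log2 7.35 to 11.96 with 1 library left out). Ccl8 was at 0 and 0.149 against 36.2 and 25.0 CPM (not called without GFP-negative A or GFP-positive A, adjusted p = 0.0603 and 0.0911). Cd209e was at 0.396 and 0 against 37.8 and 40.2 CPM (not called without GFP-negative B, GFP-positive A or GFP-positive B, adjusted p = 0.0683, 0.0589 and 0.059). Ccl24 had no count in the GFP-negative libraries and 53.4 and 43.6 CPM in the GFP-positive libraries, at least 194-fold higher against a floor of 3 counts over the state (adjusted p = 3.81e-04). Of the 23 tested phagocyte markers only C1qb was higher (4.36 and 2.23 against 41.0 and 46.7 CPM; not called with any of the 4 libraries left out, adjusted p = 0.154 to 0.266; also lost with library totals as scaling). Only Apoe was lower (209.7 and 229 against 129.7 and 124 CPM; not called with any of the 4 libraries left out, adjusted p = 0.0964 to 0.217; also lost in the fit of the 8 day 1 libraries). The phagocyte markers called were thus 8.7% of those tested, against 5.36% of all genes. The summed level of that list overlapped between the states, and MHC class II genes and Apoe made up most of it. Members not called included C1qc, at 1.98 and 2.08 against 25.1 and 16.6 CPM, Mrc1, at 0.198 and 0 against 10.8 and 18.0 CPM, and Cd14, at 0 and 4.16 against 36.7 and 22.6 CPM (adjusted p = 0.359, 0.0599 and 0.0791). All 3 were called higher in the fit of the 4 libraries alone, and Mrc1 and Cd14 also with no low-count filter. Mrc1 was also called higher with a filter of 5 CPM and in the fit of the 8 day 1 libraries, and Cd14 by DESeq2. The MHC class II gene H2-Ab1 was at 179 and 189.9 against 199 and 206 CPM. The part of phagocyte RNA in these rises was not tested.

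Epidermal transcripts were lower where they changed. Of 28 tested keratinocyte markers 4 were lower and none higher (3, 2, 1 and 4 with each library left out), against 8 lower with library totals as scaling. Krt6b, a keratin of stressed epidermis with a near-identical copy in Krt6a, stood at 98.7 and 55.0 CPM in the GFP-negative and 0.528 and 0.191 CPM in the GFP-positive libraries (log2 -7.57 ± 1.00, adjusted p = 1.04e-04, and log2 -8.47 to -7.09 with 1 library left out). Krt6a was at 304 and 263 against 115 and 147 CPM, a far smaller fall. The split of reads between the 2 copies is uncertain. Cdsn, which encodes corneodesmosin, had no count in the GFP-positive libraries and 16.6 and 9.82 CPM in the GFP-negative libraries, at least 54.4-fold lower against the same floor (not called without GFP-positive A or GFP-positive B, adjusted p = 0.0903 and 0.0697). Krt14, at 841 and 604 against 377 and 574 CPM, was not called in the full fit. It was called lower with library totals as scaling and with no low-count filter. In all, 4 of the genes called higher had no count in GFP-negative cells and 8 of those called lower had none in GFP-positive cells.

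The code 4 arm, with 2442825 to 3262545 counts per library, was set beside these values to show where the GFP difference in code 3 differed. In code 4, 935 genes (8.07%) were called between the GFP states. The test of the difference between arms called 103 genes (0.889%), 74 with a more positive GFP difference in code 4 and 29 with a more positive one in code 3. The count was 47 without code 3 GFP-negative A, 84 without GFP-negative B, 47 without GFP-positive A and 64 without GFP-positive B. Of the 621 genes called in code 3, 56 also differed between arms. The 112 higher and 191 lower genes of code 3 that were not called in code 4 are not shown to differ on that count alone.

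The secreted factors parted. The GFP difference was larger in code 3 for Il3 (log2 8.75 ± 0.28 against log2 3.79 ± 0.25 in code 4; difference -4.96 ± 0.33, adjusted p = 7.28e-08). The same held for Il2 (log2 8.13 ± 0.51 against log2 2.92 ± 0.50; difference -5.22 ± 0.77, adjusted p = 9.81e-04) and for Tnf (log2 2.93 ± 0.31 against log2 0.14 ± 0.30; difference -2.79 ± 0.42, adjusted p = 0.00125). It was also larger for Ccl9 (log2 7.31 ± 0.52 against log2 2.95 ± 0.50; difference not called without code 4 GFP-negative A, adjusted p = 0.118), Ccl3 (log2 5.66 ± 0.18 against log2 3.06 ± 0.16) and Ifng (log2 3.44 ± 0.17 against log2 2.00 ± 0.16). In code 4 Ifng was at 346 and 319 against 1300.0 and 1369 CPM, and Il3 at 15.7 and 12.3 against 185 and 202 CPM. For Xcl1 (log2 7.21 ± 0.19 against log2 6.72 ± 0.19; difference -0.49 ± 0.21, adjusted p = 0.356), Ccl1 (log2 5.65 ± 0.18 against log2 5.54 ± 0.18; difference -0.11 ± 0.21, adjusted p = 0.924) and Penk (log2 7.41 ± 0.71 against log2 6.27 ± 0.76; difference -1.14 ± 1.07, adjusted p = 0.743) the arms did not differ by this test.

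The GFP difference was smaller in code 3 for Gzmb (log2 1.17 ± 0.13 against log2 2.49 ± 0.14; difference 1.32 ± 0.19, adjusted p = 8.07e-04) and Tnfrsf9 (log2 1.73 ± 0.20 against log2 3.95 ± 0.22; difference 2.23 ± 0.28, adjusted p = 3.19e-04). Crtam, also a costimulatory receptor gene, went the other way (difference -2.93 ± 0.59, adjusted p = 0.0215), and that call was lost in 7 of 8 fits with a day 1 library left out. Gzmb in code 4 was at 1604 and 1571 against 9012 and 8813 CPM, so its GFP-positive libraries were below those of code 3 and its GFP-negative libraries further below, and Tnfrsf9 was at 75.0 and 104 against 1393 and 1386 CPM. Falls in code 3 were shallower or absent in code 4 for Actb (log2 -0.97 ± 0.11 against log2 0.14 ± 0.11; difference 1.11 ± 0.16, adjusted p = 9.40e-04) and Ifitm1 (log2 -2.04 ± 0.14 against log2 -0.61 ± 0.14; difference 1.43 ± 0.20, adjusted p = 7.46e-04). Mt2 was lower in GFP-positive cells of code 3 and higher in those of code 4 (log2 -0.82 ± 0.18 against log2 1.13 ± 0.18; difference 1.95 ± 0.25, adjusted p = 3.19e-04).

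**Figure D5:**
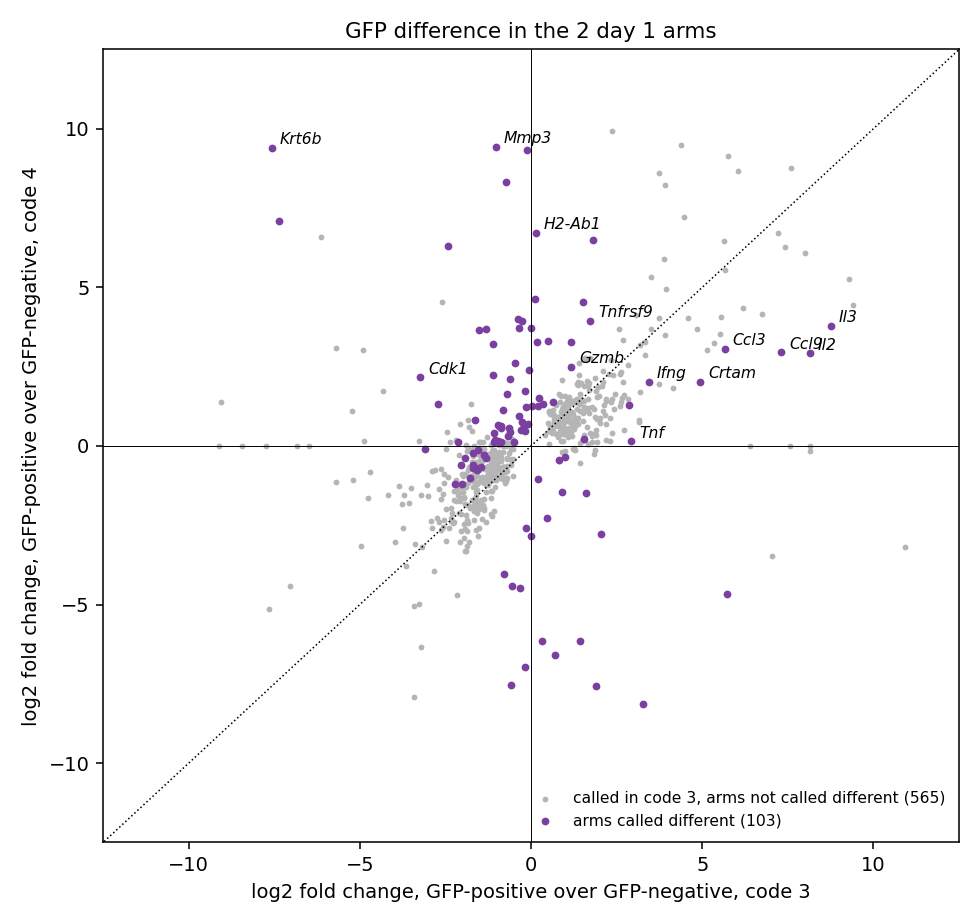
Log2 fold change of GFP-positive over GFP-negative cells in code 4 (y axis) against code 3 (x axis) for the genes called in code 3 or called different between arms; the dotted line marks equal values. Purple points are the 103 genes called different between arms, grey the other genes called in code 3. Il3, Il2, Ccl9, Ccl3 and Tnf lie below the line, and Gzmb, Tnfrsf9, H2-Ab1, Mmp3 and Krt6b above it.

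Some transcripts known from other cells also differed between arms. H2-Ab1 was at 179 and 189.9 against 199 and 206 CPM in code 3 and at 0 and 1.59 against 87.7 and 88.2 CPM in code 4 (difference 6.59 ± 0.56, adjusted p = 1.15e-06; 5.61 to 11.63 with a day 1 library left out, so its size is uncertain). The summed phagocyte markers in code 4 were 149 and 189 CPM in GFP-negative and 429 and 507 CPM in GFP-positive libraries, where code 3 showed no such gap. Mmp3, a matrix protease gene on the fibroblast marker list, also differed (difference 10.46 ± 1.35, adjusted p = 4.06e-04). It was at 123 and 81.9 against 44.1 and 56.0 CPM in code 3 and 0 and 0 against 16.3 and 17.9 CPM in code 4. With no count in the GFP-negative libraries of code 4, the fitted difference of Mmp3 depends on the prior count and is no size. The part of these cells in the arm differences was not tested.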

How the data were processed

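Libraries were made from sorted cells by CEL-seq2, per the labels' protocols. The table used holds counts (whole numbers per gene and library, not normalized) as the authors deposited them. The tools named are bcl2fastq 2.2, HTSeq and BWA 0.7.15, and the build is GRCm38, per the submitters' processing notes. Collapsing of molecular barcodes and use of strand are not given in the sources used here, so antisense and overlapping genes may share reads. External control transcripts were left out, and the second count table was not used here. A few genes are not reported here.

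In R 4.3.3, edgeR 4.0.16 fitted all 17 libraries of this table with 1 mean per header code and GFP state (9 residual degrees of freedom), after filterByExpr, TMM scaling and robust dispersions. Sharing the spread over all groups keeps the test from resting on 2 libraries against 2, where an exact permutation test cannot go below p = 0.333. Contrasts were tested by the quasi-likelihood F test and adjusted by Benjamini-Hochberg over all genes, and SE is the log2 fold change over the square root of F. Shown CPM use TMM-scaled library sizes. Lower limits of folds use 3 counts over a state with none and cover counting error only. The script was tested on simulated data. Gene positions are from GENCODE M21 (GRCm38) by symbol and chromosome.

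The members, gene lists and tests were chosen with earlier results of these data known. Named genes are Nr4a1, eGFP, Itgae, Cd69, Cd8a and Cd3e, the 15 largest called changes per direction at 10 CPM or more with libraries that do not overlap (no predicted genes, pseudogenes or receptor segments), and up to 6 called and 3 uncalled members per list. They also include the 5 most abundant called genes per state and up to 10 per direction of the arm difference. C1qc, Cd14, Csf2, Foxp3, Il13, Krt6a, Lgals3 and Mrc1 fall outside this rule and were chosen after their values were seen. Alternatives were median-of-ratios scaling, library totals, no filter, a filter of 5 CPM, DESeq2 1.42.0, 2 smaller sets of libraries, a replicate block, mitochondrial or marker genes left out, and each library left out.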

Additional observations from a re-analysis of the deposited data

Results flagged for a closer look

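The GFP difference was called different between the arms of code 4 and code 3 for 31 of the genes named above. The values here are that of code 4 minus that of code 3 (log2 ± SE, edgeR's quasi-likelihood test, adjusted p under 0.05), with 2 libraries per group in every arm. No cause was tested.

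Among secreted factors and signalling genes the difference was -4.96 ± 0.33 for Il3, -5.22 ± 0.77 for Il2, -4.36 ± 0.71 for Ccl9, -2.93 ± 0.59 for Crtam, -2.79 ± 0.42 for Tnf, -2.60 ± 0.21 for Ccl3, -1.59 ± 0.32 for Dusp2 and -1.44 ± 0.22 for Ifng. These 8 rose further in code 3, and Tnf was not called in code 4 alone (adjusted p = 0.854). Granule, growth and receptor genes had a more positive difference in code 4: 2.23 ± 0.28 for Tnfrsf9, 2.12 ± 0.42 for Gzmc, 1.32 ± 0.19 for Gzmb, 1.02 ± 0.19 for Cd8a, 0.96 ± 0.20 for Cd3g and 0.75 ± 0.17 for Eif5a.

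Another 13 genes were lower in GFP-positive cells of code 3. In code 4 Mt1 and Mt2 were higher, Cdk1, Zbp1, Stmn1, Ifitm2 and Actb were not called, and the other 6 were lower by less. The difference was 5.40 ± 0.90 for Cdk1, 2.26 ± 0.52 for Zbp1, 1.95 ± 0.25 for Mt2, 1.57 ± 0.27 for Mt1, 1.55 ± 0.32 for Stmn1, 1.46 ± 0.19 for Ifitm2, 1.43 ± 0.20 for Ifitm1 and 1.11 ± 0.16 for Actb. It was 0.93 ± 0.15 for Lgals1, 0.82 ± 0.18 for Crip1, 0.81 ± 0.15 for Vim, 0.80 ± 0.15 for Tmsb4x and 0.78 ± 0.15 for S100a4. Cdk1 in code 4 was at 1.65 and 1.19 against 11.1 and 1.22 CPM, so its value there rests on GFP-positive A, and without that library the difference was 2.99 (adjusted p = 0.287).

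Transcripts of epidermal and other skin cells also differed: 16.97 ± 1.80 for Krt6b, 10.46 ± 1.35 for Mmp3, 6.59 ± 0.56 for H2-Ab1 and 2.70 ± 0.31 for Krt14. Krt6b was lower in GFP-positive cells of code 3 and higher in those of code 4. Krt6b and Mmp3 had no counts in the GFP-negative libraries of code 4, so their fitted values depend on the prior count and give no size. Leaving out 1 day 1 library moved H2-Ab1 from 5.61 to 11.63, Ccl9 from -5.32 to -3.56, and Cdk1 from 2.99 to 6.17. With each of the 8 day 1 libraries left out in turn, 17 of the 31 differences stayed called. The 14 lost at least once were those of Ccl9, Cd3g, Cd8a, Cdk1, Crip1, Crtam, Dusp2, Eif5a, Gzmc, S100a4, Stmn1, Tmsb4x, Vim and Zbp1.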

How the results depend on the processing

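The count of 621 genes was 445 to 846 under every alternative that kept all 4 libraries except DESeq2's Wald test, which called 981. It fell to 312 to 412 with 1 of the 4 libraries left out, where the lone library is assumed to vary like the other groups. In the fit of the 8 day 1 libraries 268 genes were higher and 177 lower, and in that of the 4 libraries alone 445 and 401. Of the 621 genes, 183 kept call and direction under all 14 alternatives, among them Xcl1, Il3, Ccl3, Ifng, Gzmb, Vim and S100a6. Single-gene folds of the 154 genes named gave 2040 unchanged, 84 lost and 23 gained calls in 2147 refits, and none reversed. In code 4, 935 genes became 1477 with DESeq2. The 103 arm differences became 310 with no low-count filter, 321 with DESeq2, 68 in the fit of the 8 day 1 libraries and 47 to 104 with a day 1 library left out. 

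Whether libraries with the same letter share a source, such as an animal, is unknown from the labels. Their deviations from the group means correlated at -0.02 in code 3 and 0.00 in code 4. With so few libraries per state, these correlations cannot tell whether the letters were paired. With the letter as a replicate block 615 genes were called in code 3, 891 in code 4 and 85 between arms.

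The libraries held 5440609 to 8515297 counts, so genes of a few CPM rest on few counts. With 2 libraries per state, a gene at any level that was not called is not shown to be unchanged.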
